A study of Mus musculus with 10 samples.

Results

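Cyp2b10 and a set of other cytochromes P450 that handle foreign compounds were examined in the aorta of Npas2 mutant mice and wild-type mice, together with the reductase Por and the nuclear receptor Nr1i3. The members were every probe set that the platform annotation gives to 1 of 9 listed genes. In all, 8 of the 9 genes had a probe set, making 13 probe sets of 45037 that were not controls, and Por had none. A probe set entered the test if it was above the median of its own array on at least 5 of the 10 arrays, which 10 of the 13 did, covering 6 genes. The genes were chosen by the measured difference of Cyp2b10 in this same contrast, with P450s and partners of like function added, so their values are a description and carry no test of their own.

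There were 5 arrays of NPAS2 mutant mice on a C57Bl/6J background and 5 of wild-type mice labelled C57Bl/6. If the groups differed in substrain, its effect cannot be told apart from that of the mutation. All mice were male, kept for 2 weeks or more under 12 h light and 12 h dark, then for 30 h or more without light, and killed at zeitgeber time 14 h. The vessel was taken after perfusion with buffer, and the labels call it thoracic aorta in one place and aorta from the arch to beyond the femoral branching in another. The sources used here give no age, no kind of mutation and no statement that each array held a separate mouse, so p-values measure the spread between arrays, which may be technical. RNA was hybridised to Affymetrix MOE 430V2 arrays, and each deposited value is a log2 level per probe set. Levels of different probe sets cannot be set against each other, since each has its own probes.

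Cytochromes P450 are haem enzymes of the endoplasmic reticulum that insert oxygen into lipophilic substrates, with electrons passed on by Por. Members of the Cyp2b family oxidise drugs and steroids and are the best-known targets of the constitutive androstane receptor, the product of Nr1i3, which is most active in liver. NPAS2 pairs with BMAL1 and binds E-boxes in DNA.

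The upstream sequences of Cyp2b10 and its paralogues Cyp2b9 and Cyp2b23 are shown for comparison within the family, and that of Nr1i3 because it holds an E-box. The probe sets for Cyp2b10 may also read its paralogues, but they read transcripts, so likeness upstream does not show this. Each sequence is the 250 bases before the start used in a RefSeq promoter table, build GRCm38.p6, written in the direction of the gene. The annotated extent of Cyp2b9 and Nr1i3 reaches farther upstream than that start, so 59 and 36 of their printed bases lie inside the annotated gene, and 0 do for Cyp2b10 and Cyp2b23. Of the windows counted but not printed, those of Cyp26b1 and Cyp2b13 lie partly, and that of Por wholly, inside the annotated gene. The positions are chr7:25897408-25897657 on the plus strand for Cyp2b10, chr7:26173159-26173408 on the plus strand for Cyp2b9, chr7:26686431-26686680 on the minus strand for Cyp2b23 and chr1:171213720-171213969 on the plus strand for Nr1i3. Capitals mark matches, on either strand, to the AhR core GCGTG, the nuclear receptor half-site AGGTCA and the E-box CACGTG.
Cyp2b10: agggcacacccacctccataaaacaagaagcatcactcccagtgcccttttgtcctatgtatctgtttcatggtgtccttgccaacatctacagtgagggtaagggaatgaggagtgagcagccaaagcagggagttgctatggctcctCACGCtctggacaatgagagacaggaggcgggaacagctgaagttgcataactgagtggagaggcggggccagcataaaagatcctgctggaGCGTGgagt
Cyp2b9: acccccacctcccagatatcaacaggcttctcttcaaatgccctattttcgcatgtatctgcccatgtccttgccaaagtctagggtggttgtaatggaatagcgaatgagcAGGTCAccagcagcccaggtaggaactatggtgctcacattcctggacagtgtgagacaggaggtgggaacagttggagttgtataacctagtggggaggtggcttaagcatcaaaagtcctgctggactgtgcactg
Cyp2b23: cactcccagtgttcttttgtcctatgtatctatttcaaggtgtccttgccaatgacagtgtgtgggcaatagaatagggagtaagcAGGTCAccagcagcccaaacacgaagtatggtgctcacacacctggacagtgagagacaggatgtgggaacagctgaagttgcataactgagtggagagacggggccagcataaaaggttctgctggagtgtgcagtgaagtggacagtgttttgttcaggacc
Nr1i3: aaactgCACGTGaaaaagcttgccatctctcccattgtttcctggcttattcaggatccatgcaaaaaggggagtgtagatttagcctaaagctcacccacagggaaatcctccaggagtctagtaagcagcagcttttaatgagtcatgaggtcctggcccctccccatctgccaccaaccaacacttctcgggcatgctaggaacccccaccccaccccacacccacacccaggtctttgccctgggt
In a gapped alignment, 71.6% of the 250 bases of Cyp2b10 were matched by Cyp2b9, 71.6% by Cyp2b13, 70.8% by Cyp2b19 and 72.0% by Cyp2b23, against 47.6% to 52.0% for the other members' upstream sequences. The half-site AGGTCA was in the windows of all 4 paralogues and not in that of Cyp2b10. Over the full 300-base windows, which run 50 bases past the start, the half-site was in 16.3% of 32851 windows and in 1 of 8 member windows, that of Cyp2f2. The E-box CACGTG was in 7.15% of all windows and in 1 of the 8, that of Nr1i3. GCGTG was in 32.4% of all windows and in 3 of the 8, those of Cyp1b1, Cyp2b10 and Por. The direct repeat 4 element, which is a spaced pair of half-sites and so contains that motif, was in 0.0152% of windows and in 0 of the 8. The TATA box TATAAA was in 13.6% of windows and in those of Cyp26b1 and Cyp2e1. These matches say only which letters stand in the windows, and the phenobarbital-responsive enhancer known for Cyp2b genes lies farther upstream than they reach.

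Cyp2b10 was higher on every mutant array than on any wild-type array, on each of its 3 probe sets. On 1425645_s_at its log2 level was 6.73, 8.12, 7.01, 6.50 and 7.62 on mutant arrays F12, F13, F18, F19 and F20, against 5.99, 4.69, 4.75, 5.38 and 4.64 on wild-type arrays F11, F14_2, F15, F16 and F17. The means were 7.20 ± 0.67 in the mutant and 5.09 ± 0.59 in wild type (SD, n = 5 each), a log2 difference of 2.11 ± 0.35 (SE) or 4.31-fold. The lowest mutant array, F19, stood above the highest wild-type array, F11, by less than the SD of either group.

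On 1422257_s_at the levels were 6.00, 7.56, 6.29, 6.34 and 6.93 on mutant arrays F12, F13, F18, F19 and F20, against 5.33, 4.25, 4.35, 4.59 and 3.60 on wild-type arrays F11, F14_2, F15, F16 and F17. The log2 difference was 2.20 ± 0.34 (SE). Arrays F13 and F20 were again the highest of the mutant and F11 and F16 the highest of wild type. The same arrays led on the remaining probe set. On 1451787_at the levels were 4.86, 6.64, 5.38, 4.58 and 5.96 on the mutant arrays in the same order, against 4.41, 2.87, 3.13, 4.05 and 2.86 on the wild-type arrays. Its log2 difference was 2.02 ± 0.43 (SE), and it is the only probe set of the 3 whose suffix does not mark probes shared with related transcripts. It was above the median of its own array on 7 of the 10 arrays, and not on wild type F14_2, F15 and F17. Its wild-type levels thus reach near the floor, and the mutant arrays alone were enough for it to enter the test.

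**Figure D1:**
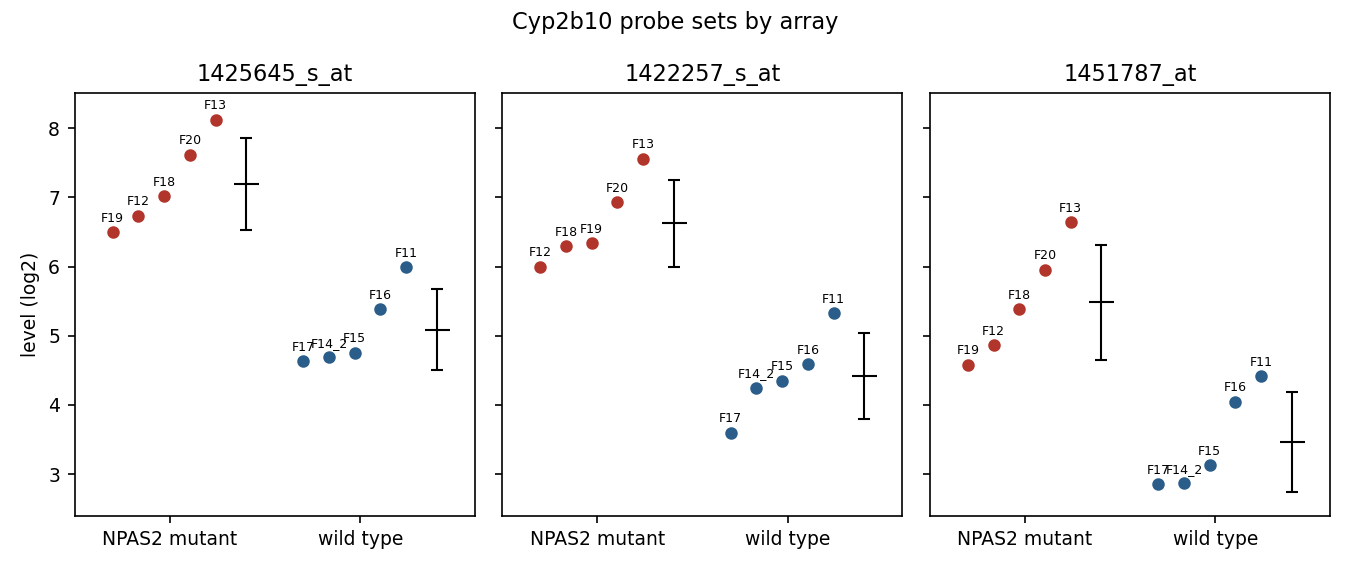
Log2 level of the 3 Cyp2b10 probe sets on each array, NPAS2 mutant left and wild type right, with array names; the bar and whiskers give the mean and SD of 5 arrays. On each probe set all 5 mutant arrays lie above all 5 wild-type arrays, with F13 highest in the mutant and F11 highest in wild type.

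In the limma fit over all 22340 tested probe sets, 2 of the 10 tested member probe sets passed an adjusted p of 0.05, both of them Cyp2b10 and both higher in the mutant. Of all tested probe sets 0.215% passed, with 0.094% higher and 0.121% lower in the mutant. The groups did not overlap on 3 of the 10 member probe sets, those of Cyp2b10, and on 4.01% of all tested probe sets. These counts come from the contrast that led to the choice of Cyp2b10, so nothing is read from them. When 1 array was left out, both passed without wild type F11, and neither did without any single one of the other 9 arrays. Of all tested probe sets 9 to 43 passed with 1 array fewer, against 48 with all arrays. The difference on 1425645_s_at lay between 1.88 and 2.33 in those 10 fits. The 1451787_at probe set passed at a threshold of 0.1 and at no other setting under which it was tested.

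The 3 probe sets followed each other from array to array also within the groups. After the group means were removed, 1425645_s_at and 1451787_at correlated over the 10 arrays at Pearson r = 0.988 and Spearman rho = 0.988 (exact permutation within groups, p = 6.94e-05 for each, the smallest possible, and 0.00937 for each after adjustment over 135 relations). For 1425645_s_at and 1422257_s_at r was 0.919 (exact permutation adjusted p = 0.0406) and rho 0.855 (exact permutation adjusted p = 0.255). For 1422257_s_at and 1451787_at r was 0.898 (exact permutation adjusted p = 0.0406) and rho 0.842 (exact permutation adjusted p = 0.255). Without the 2 arrays farthest from the median these r were 0.983, 0.753 and 0.744. These are readings of the same RNA, so they are not independent of each other.

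The Cyp2b paralogues with a probe set of their own were near the floor of the arrays. Cyp2b9 stood between 2.39 and 2.42 on the mutant arrays and between 2.38 and 2.41 on the wild-type arrays, below the array median on all 10, as were the other paralogues. Cyp2b13 lay between 2.10 and 2.19 in the mutant and between 2.09 and 2.11 in wild type, and Cyp2b19 between 2.55 and 2.73 in the mutant and between 2.53 and 2.58 in wild type. The platform annotation names no probe set of Cyp2b23.

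Brown fat markers mostly stood higher in the same group as Cyp2b10: 10 of 12 tested had a higher mean in the mutant and 0 passed limma. The first 2 genes of the list, Ucp1 and Cidea, differed by 0.996 and 0.23. Elovl3 had the largest difference of the list, 2.57 ± 0.58 (SE), and its groups did not overlap. Prdm16 and Lhx8 had lower means, by differences of -0.27 and -0.11, and Ppargc1a differed by 0.0156. Elovl3, Prdm16, Lhx8 and Ppargc1a were named after their values were seen. The mean of the 12 tested brown fat genes of 13 with a probe set, Zic1 being too dim, lay between 8.17 and 8.63 on the mutant arrays and between 7.43 and 7.95 on the wild-type arrays. Within the groups the order was not the same: mutant F12 had the highest brown fat mean and the lowest or next to lowest Cyp2b10 level, depending on the probe set. With group means removed, Cyp2b10 on 1425645_s_at and the brown fat mean correlated at r = 0.308 and rho = 0.176 (exact permutation p = 0.406 and 0.656, adjusted 0.916 and 0.932 over 135 relations), and r was 0.0101 without the 2 arrays farthest from the median. On 1422257_s_at r was 0.471 and rho 0.37 (exact permutation adjusted p = 0.916 and 0.851), and r was 0.312 without its 2 farthest arrays. For 1451787_at r was 0.278 and rho 0.188 (exact permutation adjusted p = 0.916 and 0.928), and r was -0.00873 without its 2 farthest arrays. With the brown fat mean as a covariate the Cyp2b10 difference was 1.55 ± 0.65 (SE) on 1425645_s_at, 1.36 ± 0.60 on 1422257_s_at and 1.40 ± 0.81 on 1451787_at. Since the brown fat means of the groups did not overlap, differences from that fit, here and below, separate group and brown fat poorly. None of the 3 passed the test in that fit, in which 4 of all 22340 probe sets did. The part of brown fat in the Cyp2b10 difference was not tested beyond this, and in a piece of vessel fewer cells of a type and less RNA per cell cannot be told apart.

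Skeletal muscle markers had the largest difference of any marker list, 1.69 on the log2 scale, with 11 of 11 higher in the mutant and 0 passing the test. The mean of the 11 ran from 3.30 to 10.93 on the mutant arrays and from 3.23 to 9.75 on the wild-type arrays, so the groups overlapped. Without the 4 arrays of highest muscle signal, mutant F12, F19 and F20 and wild type F16, 2 mutant and 4 wild-type arrays were left, a choice made after the data were seen. The Cyp2b10 difference was then 2.55 ± 0.48 (SE) on 1425645_s_at, 2.55 ± 0.53 on 1422257_s_at and 2.69 ± 0.54 on 1451787_at. No member probe set passed limma there at an adjusted p of 0.05, with 3 of 10 at an unadjusted p of 0.05, and 0 of all 22340 probe sets passed there either.

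**Figure D2:**
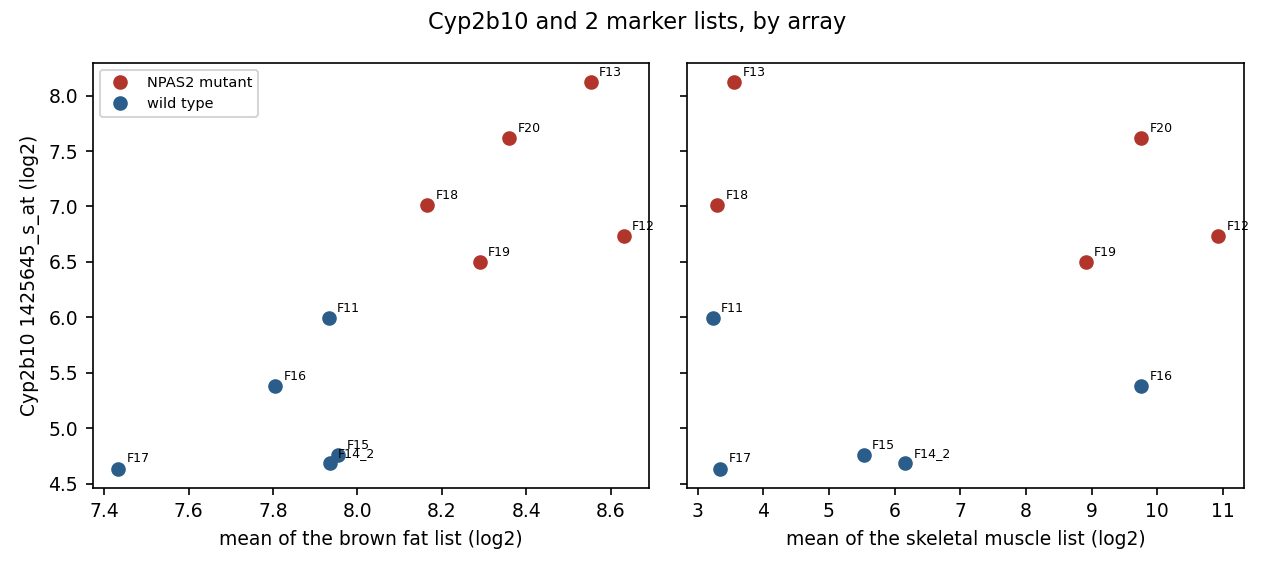
Cyp2b10 level on 1425645_s_at (log2, vertical) against the mean of the brown fat list (left) and of the skeletal muscle list (right), 1 point per array, NPAS2 mutant and wild type in separate colours. The mutant arrays lie between 8.17 and 8.63 on the brown fat axis and the wild-type arrays between 7.43 and 7.95, while on the muscle axis the groups are mixed.

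Markers of liver and lung cells, in which these P450s are best known, were partly too dim to test. Of the hepatocyte list 10 of 11 genes with a probe set were too dim to test, among them Alb, at 2.92 ± 0.27 in the mutant and 2.67 ± 0.24 in wild type, and Apoa1. The remaining gene, Pck1, had 10.56 ± 0.45 in the mutant and 10.15 ± 0.27 in wild type (SD, n = 5 each, limma adjusted p = 0.371), and is also made by fat cells. Of the alveolar list 7 of 10 were too dim, including the surfactant genes Sftpa1 and Sftpb, and the mean of the other 3 lay between 4.56 and 4.87 in the mutant and between 4.53 and 4.85 in wild type. Of the club cell list 5 of 10 were too dim, and the mean of the other 5 lay between 7.27 and 7.76 in the mutant and between 7.29 and 7.92 in wild type. Scgb1a1, the defining secretory protein of club cells, had levels of 3.87 ± 0.43 in the mutant and 4.89 ± 1.18 in wild type (SD, n = 5 each, limma adjusted p = 0.341), and Scgb3a1 had 3.44 ± 0.10 in the mutant and 3.48 ± 0.09 in wild type. Scgb1a1 was above the array median on all 10 arrays and reached 6.82 on wild type F11, the array with the highest Cyp2b10 level in its group. Other arrays did not pair so: in the mutant Scgb1a1 was highest on F12, at 4.60, where Cyp2b10 was lowest or next to lowest. With group means removed, the club cell mean and the Cyp2b10 probe sets correlated at r from 0.266 to 0.392 (exact permutation adjusted p = 0.916 for each). Without the 2 farthest arrays r ran from -0.199 to -0.0676. Of the other club cell genes, named after their values were seen, Hp differed by 0.43 and Ldhb by 0.48 (limma adjusted p = 0.205 and 0.206), and Aldh1a7 by 0.00158. The part of liver cells in the Cyp2b10 difference was not tested, and for lung cells only relations within the groups and a covariate were computed. With the alveolar and club cell mean as a covariate the Cyp2b10 difference on 1425645_s_at was 2.12 ± 0.36 (SE). That mean left out the genes too dim to test and included Hp, Ldhb and Aldh1a7. It is a weak measure of lung cells, so the value cannot show their part. Fat cell markers, 12 of 12 tested, averaged between 10.73 and 11.08 in the mutant and between 10.73 and 10.92 in wild type, with 10 higher in the mutant. The contractile smooth muscle list, 10 of 10 tested, averaged between 10.60 and 10.89 in the mutant and between 10.77 and 11.06 in wild type. The adrenal list had 6 of 7 genes too dim, and endothelial, fibroblast and macrophage lists had differences of 0.02, 0.06 and 0.22 between their means. In these last lists 6 of 10, 8 of 10 and 8 of 9 tested genes were higher in the mutant.

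Cyp2e1, which oxidises ethanol and small solvents, overlapped between the groups. Its levels on 1415994_at were 12.45, 12.54, 12.84, 12.57 and 12.37 on mutant arrays F12, F13, F18, F19 and F20, against 12.07, 12.17, 11.97, 12.47 and 12.73 on wild-type arrays F11, F14_2, F15, F16 and F17. Wild type F11, F14_2 and F15 lay below every mutant array, while wild type F17 was above all mutant arrays but F18. The log2 difference was 0.27 ± 0.15 (SE), or 1.21-fold. With group means removed, Cyp2e1 ran against the brown fat mean at r = -0.814 and rho = -0.600 (exact permutation p = 0.00507 and 0.0567, adjusted 0.137 and 0.565 over 135 relations). Without the 2 arrays farthest from the median in Cyp2e1 r was -0.387, and without any single array it lay between -0.877 and -0.626. Leaving out the farthest arrays also narrows the range of Cyp2e1, so the lower r cannot show what the relation rested on. With the brown fat covariate the Cyp2e1 difference was 0.87, from a fit that separates group and brown fat poorly.

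Cyp2f2, known in the mouse for activating naphthalene in airway cells, had the second largest difference among the members. Its levels on 1448792_a_at were 5.89, 5.72, 6.07, 5.60 and 6.26 on the mutant arrays in the order above, against 5.80, 4.28, 5.22, 5.19 and 5.70 on the wild-type arrays. All 5 mutant arrays were above the wild-type mean, but wild type F11 and F17 lay within the mutant range, and wild type F14_2 was the lowest. The log2 difference was 0.67 ± 0.26 (SE), or 1.59-fold, and did not pass the test. It lay between 0.43 and 0.81 when any single array was left out, the lowest being without F14_2, and was 1.15 ± 0.48 with the brown fat covariate.

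Cyp1b1 acts on polycyclic aromatic hydrocarbons and on estradiol and is a target of the aryl hydrocarbon receptor. On 1416612_at its levels were 8.14, 8.29, 8.60, 8.84 and 8.58 on the mutant arrays, against 8.68, 8.66, 8.80, 8.90 and 8.56 on the wild-type arrays. Mutant F12 and F13 were the 2 lowest of all 10, and the other 3 lay within the wild-type range. The log2 difference was -0.23 ± 0.13 (SE), and that of 1416613_at was -0.13 ± 0.12. Without mutant F12 they were -0.14 and -0.05, and with the brown fat covariate -0.0220 and 0.00534, so the direction of 1416613_at turned. Another probe set, 1432081_at, stood at 2.07 ± 0.01 in the mutant and 2.06 ± 0.01 in wild type, below the array median on all 10. The aryl hydrocarbon receptor gene itself, Ahr, had a log2 difference of 0.28 ± 0.20 (SE, limma adjusted p = 0.505), which turned to -0.0256 without the 4 arrays of most muscle signal.

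Cyp4b1, a P450 of lung and other epithelia that acts on fatty acids and on ipomeanol, hardly differed. Its levels ran from 7.03 to 7.43 in the mutant and from 7.02 to 7.34 in wild type, with a log2 difference of 0.01 ± 0.09 (SE) and a 95% interval from -0.19 to 0.21. Cyp2d22, a mouse Cyp2d enzyme, was read by 2 probe sets that went different ways. On 1419040_at the levels ran from 5.74 to 5.93 in the mutant and from 5.56 to 6.04 in wild type, with a difference of 0.03 ± 0.09 (SE). On 1419039_at they ran from 4.05 to 4.83 in the mutant and from 4.39 to 4.91 in wild type, with a difference of -0.26 ± 0.15 (SE). With group means removed, the 2 probe sets correlated at r = 0.696 and rho = 0.685 (exact permutation p = 0.00417 and 0.0496, adjusted 0.137 and 0.565).

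Cyp26b1 and Nr1i3 were too dim to test. Cyp26b1, which clears retinoic acid, had levels of 2.64, 2.55, 2.90, 3.06 and 2.94 on the mutant arrays, against 2.89, 2.91, 2.85, 3.25 and 2.81 on the wild-type arrays, and was above the array median on wild type F16 alone. Nr1i3 lay between 2.25 and 2.29 on the mutant arrays and between 2.24 and 2.28 on the wild-type arrays, below the median of its array on all 10.

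**Figure D3:**
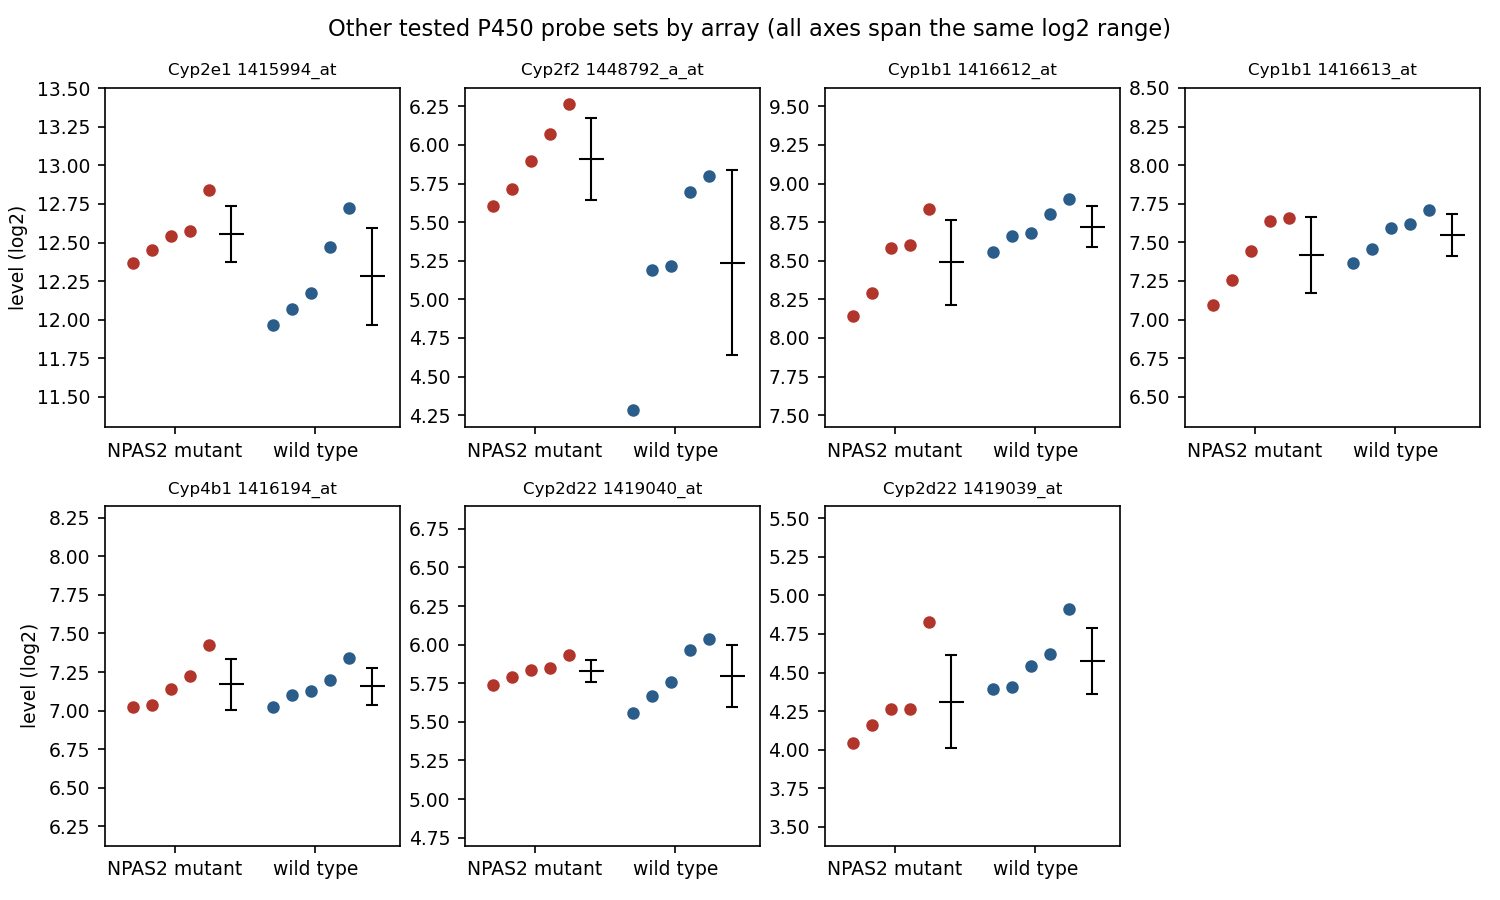
Log2 level of the 7 tested probe sets of Cyp2e1, Cyp2f2, Cyp1b1, Cyp4b1 and Cyp2d22 on each array, NPAS2 mutant left and wild type right, with the mean and SD of 5 arrays. The groups overlap in every panel, and the axes differ in position but not in span.

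**Figure D4:**
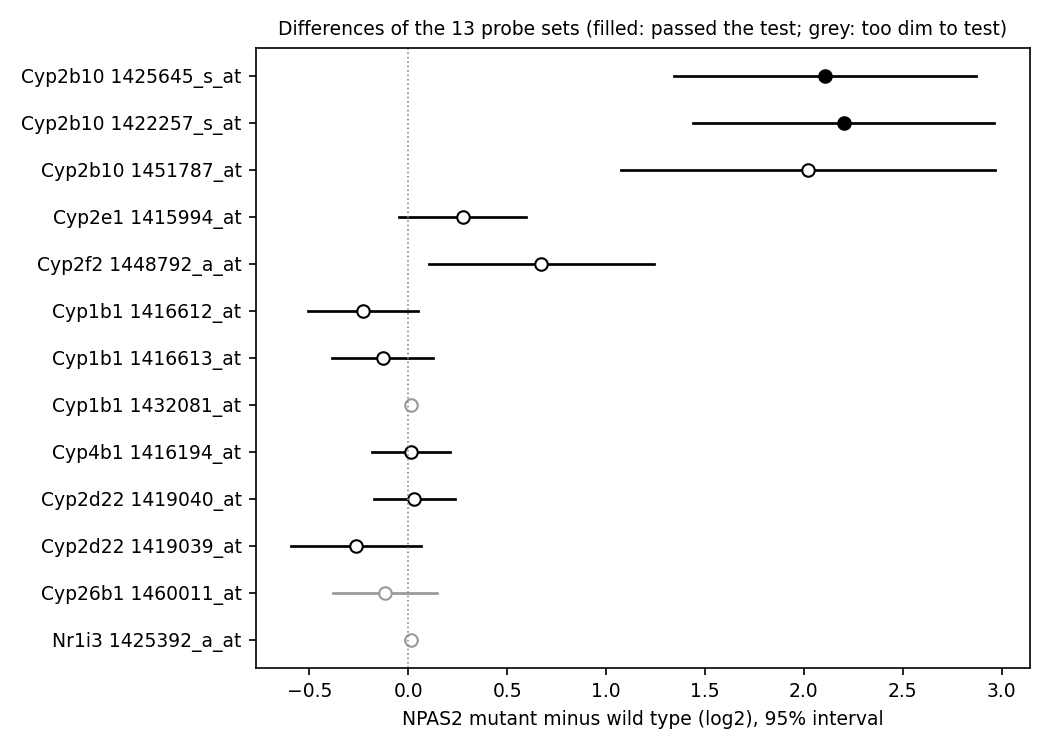
Log2 difference, NPAS2 mutant minus wild type, of the 13 member probe sets with 95% intervals from the limma fit; filled points passed the test and grey ones were too dim to enter it. Only the Cyp2b10 probe sets reach a difference above 2, and the next, Cyp2f2, is at 0.67.

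Across the 10 tested member probe sets, 7 stood higher and 3 lower in the mutant, with a median log2 difference of 0.15. Over all 22340 tested probe sets the median was -0.03, with 42.4% higher in the mutant. Of the 7 higher member probe sets, 3 were those of Cyp2b10, the gene chosen by this difference. No shift of the members as a set is therefore read from these values. Among 40 pairs of probe sets of different genes, none had an exact permutation adjusted p under 0.05 within the groups. Their r ran from -0.569 to 0.497, with 0 at an unadjusted p of 0.05. None of 90 pairs of a member and a marker list reached that adjusted p either, with 7 at an unadjusted p of 0.05. With 10 arrays this does not show that the members vary apart. Even the Cyp1b1 probe sets 1416612_at and 1416613_at, at r = 0.754, missed it (exact permutation adjusted p = 0.509).

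Genes around these enzymes in the handling of foreign compounds were compared in 9 lists. Of 287 genes listed, 237 had a probe set and 129 were bright enough to test, each by its brightest probe set. Ephx2, the soluble epoxide hydrolase that opens epoxides formed by P450s, was the 1 that passed limma over all probe sets. The lists were chosen with earlier results of these data known, so this pass is a description and not independent support. Of all tested genes 0.183% passed, with 0.119% higher and 0.064% lower in the mutant. On 1448499_a_at Ephx2 stood at 9.44, 9.46, 9.28, 9.14 and 9.43 on mutant arrays F12, F13, F18, F19 and F20, against 8.84, 8.96, 8.70, 8.73 and 8.84 on wild-type arrays F11, F14_2, F15, F16 and F17. The groups did not overlap, and the log2 difference was 0.54 ± 0.08 (SE, adjusted p = 0.0306). It passed without mutant F19 and without wild type F14_2, at 0.59 and 0.57, and did not pass without any other single array. With the brown fat covariate it was 0.41 ± 0.15 (SE, limma adjusted p = 0.583). Of the 129 genes, 70 stood higher and 59 lower in the mutant, with a median difference of 0.02, and 19 were at an unadjusted p of 0.05. Over all 10945 tested genes the median was -0.02, with 44.1% higher in the mutant and 1646 at that unadjusted p.

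Most other P450s were too dim to test. Of 31 further genes of P450 families 1 to 3 with a probe set, 27 were too dim, and 0 of the 4 tested passed limma, with 0 at an unadjusted p of 0.05. Among them Cyp2j9 had a difference of -0.35 ± 0.21 (SE, adjusted p = 0.430) and Cyp2j6, a P450 of arachidonic acid, 0.17 ± 0.20 (adjusted p = 0.705). The Cyp2j6 difference turned to -0.71 with the brown fat covariate and ran from 0.0370 to 0.289 when 1 array was left out. Of the P450s of fatty acids, sterols and prostanoids 10 of 29 were tested and 0 passed, with 1 at an unadjusted p of 0.05. That was Ptgis, the prostacyclin synthase of the vessel wall, at 11.79 ± 0.23 in the mutant and 12.05 ± 0.08 in wild type (SD, n = 5 each, limma adjusted p = 0.277). Cyp11a1, the side-chain cleavage enzyme of steroid synthesis, had a difference of 0.21 ± 0.11 (SE, adjusted p = 0.385), which turned to -0.0185 without the 4 arrays of most muscle signal.

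The partners of the P450s did not pass either. Of 8 tested electron donors 5 were higher and 3 lower in the mutant, 0 passed limma and 1 was at an unadjusted p of 0.05. Fdx1, the ferredoxin of mitochondrial P450s, had a difference of 0.23 ± 0.09 (SE, adjusted p = 0.267) and the cytochrome b5 reductase Cyb5r1 0.18 ± 0.15 (adjusted p = 0.581). With the brown fat covariate both turned, to -0.00192 for Fdx1 and -0.38 for Cyb5r1. Of 10 tested xenobiotic receptors and partners 0 passed and 1 was at an unadjusted p of 0.05. That was Arnt, the partner of the aryl hydrocarbon receptor, at -0.26 ± 0.11 (SE, adjusted p = 0.279), while its 3 other tested probe sets had differences from -0.17 to 0.01.

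Oxidases, dehydrogenases and hydrolases other than P450s had 34 tested genes, 21 higher and 13 lower, with Ephx2 as the 1 that passed limma and 7 at an unadjusted p of 0.05. Of 35 tested conjugating enzymes 17 were higher and 18 lower, 0 passed and 6 were at an unadjusted p of 0.05. Nnmt, which methylates nicotinamide, had a difference of 0.36 ± 0.13 (SE, adjusted p = 0.240) and Inmt, which methylates indoles, -0.36 ± 0.14 (adjusted p = 0.257). With the brown fat covariate the Inmt difference turned to 0.23, and that of Nnmt was 0.77. Of 15 tested transporters 7 were higher and 8 lower, 0 passed and 3 were at an unadjusted p of 0.05. The prostaglandin carrier Slco2a1 had a difference of -0.33 ± 0.20 (SE, adjusted p = 0.447) and Slco4a1, an organic anion carrier, 0.31 ± 0.09 (adjusted p = 0.172). Without mutant F20 the Slco2a1 difference was -0.13. Of 13 tested genes of retinoid handling 7 were higher and 6 lower, 0 passed and 0 were at an unadjusted p of 0.05. Rbp7, a retinol-binding protein, had a difference of 0.24 ± 0.13 (SE, adjusted p = 0.372) and the retinol dehydrogenase Rdh5 -0.24 ± 0.13 (adjusted p = 0.406). Without wild type F15 the Rdh5 difference was -0.12, and with the brown fat covariate that of Rbp7 was 0.0450.

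**Figure D5:**
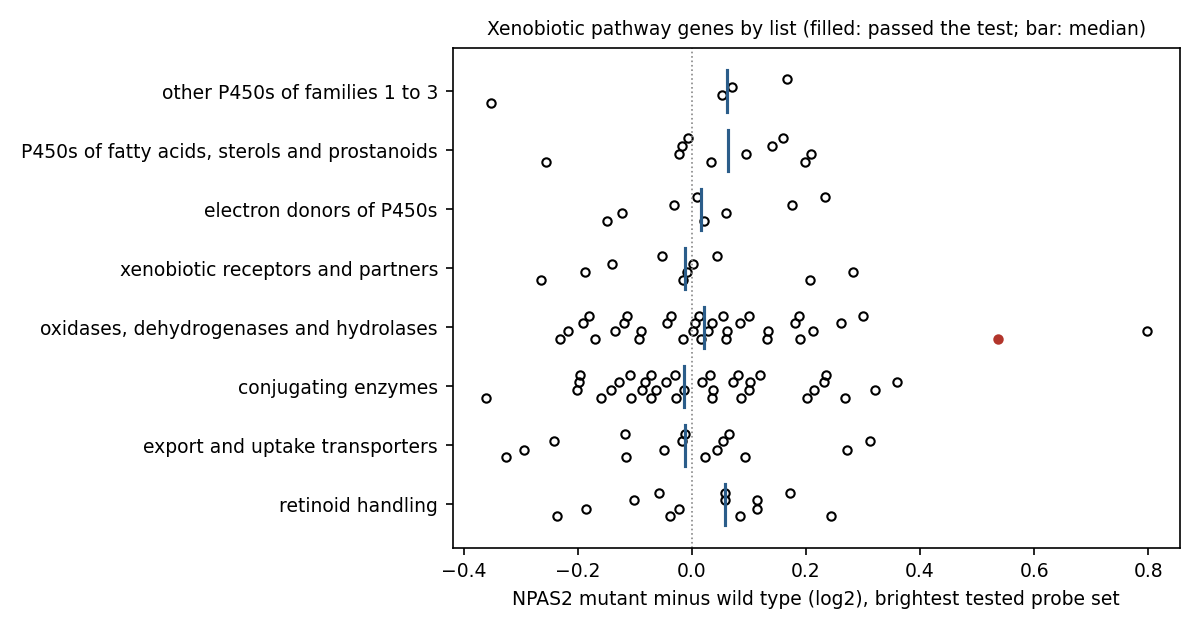
Log2 difference, NPAS2 mutant minus wild type, of each tested gene in 8 of the 9 lists (none of the Cyp2b paralogues was tested), by its brightest tested probe set; the bar is the list's median. Ephx2 is the 1 filled point, at 0.54, and the medians lie between -0.01 and 0.06.

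The genes whose array-to-array pattern was most like that of Cyp2b10 (1425645_s_at) were found after removal of the group means over the 10 arrays. They were Foxp4 (r = 0.953), Jup (0.922), Appbp2 (0.914), Atat1 (0.907) and C330007P06Rik (0.897), each the best probe set of its gene. Their differences between the groups were small, from -0.16 for Appbp2 to 0.15 for C330007P06Rik. For Cyp2f2 they were Pla2g15 (r = 0.952), Ssr1 (0.945), Ermp1 (0.936), Ccl9 (0.933) and Mysm1 (0.929). These are the highest of all tested probe sets over the same 10 arrays, so their size is partly set by the choice, and no p is given.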

How the data were processed

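Total RNA from 10 aortic samples was measured, 1 array each. The authors deposited log2 values per probe set, summarised and normalised before deposit. GCRMA and MAS5 are named per the submitters' processing notes, without a version or a statement of which made the values, and the log2 scale was read from the values themselves (1.10 to 14.74). The table was used as deposited. The platform annotation gave 34945 of 45037 probe sets 1 gene, and symbols were updated through gene identifiers of GRCm38.p6. Upper quartiles per array lay between 5.40 and 5.55, correlations between arrays between 0.986 and 0.996, and precision is limited by how many arrays there were.

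The fit was limma 3.58.1 in R 4.3.3 (lmFit, eBayes), NPAS2 mutant minus wild type, two-sided, p-values being adjusted by Benjamini and Hochberg's method across the 22340 probe sets tested. Relations between measures were tested by exact permutation within groups (14400 arrangements). The members and lists were chosen with earlier results of these data known. Named were all member probe sets, the genes of each list that passed or else the 2 of largest difference, the first 2 measured genes of a marker list, and the 5 genes of most like pattern. Replicate names are shared by no 2 arrays. Alternatives covered filters, normalisation, variance model, threshold, shared probe sets, covariates and single arrays.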

Additional observations from a re-analysis of the deposited data

Results flagged for a closer look

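Of 56 groups of 5 arrays examined for a single array standing apart, 3 were marked, and chance marks about 1 in 20. Cyp2d22 on 1419039_at was 4.83 on mutant F13, where the next mutant array was at 4.26. Cyp26b1 on 1460011_at was 3.25 on wild type F16, where the next was at 2.91. Rdh5 on 1418808_at was 4.57 on wild type F15, where the next was at 4.08.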

How the results depend on the processing

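No paired analysis was possible because the arrays of the groups share no replicate number. Of the member probe sets 2 passed, among 48 of all probe sets. Again 2 passed with the filter at the 75th percentile, quantile normalisation or trend and robust variance, among 141, 61 and 62 of all. The count was 1 with median centring, array weights or the alveolar and club cell covariate, among 48, 52 and 69. With probe sets averaged per gene it was 1 gene, Cyp2b10, the same gene that passed before averaging. The count was 0 with no filter (17 of all), ordinary analysis of variance (13), and the brown fat (4), fat cell (10) or skeletal muscle covariate (7). It was 0 without the 4 arrays of most muscle signal, chosen after seeing the data, where 0 of all passed. Without probe sets of shared suffix it was 0 by construction, since both that passed carry that suffix. At a threshold of 0.1 it was 3 (191 of all). Leaving out 1 array gave 0 to 2 (9 to 43 of all). Of the pathway genes 1 passed, against 2 with the filter at the 75th percentile, and 0 with no filter, analysis of variance, those 3 covariates or without the 4 arrays. Leaving out 1 array gave 0 to 1. The Cyp2b10 differences kept their sign under every alternative run. The gene was chosen by this difference, and its groups did not overlap on any of its probe sets. Leaving out arrays, or changing the filter, array weights, variance model or threshold, therefore could not turn that sign. The sign turned for some differences that had not passed. With the brown fat covariate Cyp1b1 1416613_at was 0.00534, Cyp4b1 -0.0363, Cyp2d22 1419040_at -0.11, Cyp2j6 -0.71, Fdx1 -0.00192, Cyb5r1 -0.38 and Inmt 0.23. With the fat cell covariate Cyp4b1 was -0.0319 and Cyp2d22 1419040_at -0.0267. Cyp4b1 was -0.00891 with median centring, -0.00276 with the skeletal muscle covariate and -0.0362 without the 4 arrays, where Cyp11a1 was -0.0185 and Ahr -0.0256. Cyp2d22 averaged over its probe sets was -0.12. Leaving out 1 array gave -0.0519 to 0.0577 for Cyp4b1 and -0.0283 to 0.0909 for Cyp2d22 1419040_at. The median likeness of the 5 genes to Cyp2b10 was 0.914 by Pearson and 0.782 by Spearman. The cause of these changes was not tested. Array number and dim signal limit what can be seen of Cyp26b1 and Nr1i3.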
